A study of Homo sapiens with 12 samples.

Results

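Transcript levels in U937 cells carrying an shRNA against the chromatin remodeler CHD4 were compared with those in U937 cells carrying a scrambled shRNA. The comparison used the 6 U937 arrays of the 12 in the series, 3 per group, taken by their titles, and ran over 11963 genes. Where a gene had several probe sets, the one brightest on average over the 12 arrays stood for it. U937 is an established human monocytic leukaemia line, grown in RPMI medium with fetal bovine serum and antibiotics. Per the labels, both groups were given pRRL.H1.shRNA lentiviral vectors that also express green fluorescent protein, so vector and reporter are shared and the hairpin differs. The target is written CDH4 in the sample labels but CHD4 in the series text. The gene CDH4 was not analysed here, and the number of hairpin sequences used is not given in the sources used here. Triplicates were biological per the series text, which asks how CHD4 depletion affects the transcriptome of acute myeloid leukaemia cells. The title names sensitivity to genotoxic agents. The other 6 arrays, of the leukaemia line MV4-11 under the same hairpin labels, entered the estimate of the spread and 1 comparison of the responses.

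CHD4 is an ATPase that slides nucleosomes and is a core subunit of NuRD, the complex that couples nucleosome remodelling to histone deacetylation. NuRD is known mainly for keeping genes of other lineages low, and is also found at active promoters and enhancers. In blood cells it takes part in lineage choice, and CHD4 is recruited to sites of DNA damage.

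All values are log2 RMA values, on which a difference of 1 is 2-fold, and a change is the mean of the 3 CHD4 shRNA arrays minus that of the 3 scrambled arrays, with its standard error (SE). Each adjusted p comes from limma, with Benjamini-Hochberg adjustment over the 11963 genes, and under 0.05 counted as past the threshold. The fit was repeated 6 times, leaving out 1 U937 array each time. Counts from these fits are given in the order scrambled replicates 1, 2 and 3 and then CHD4 shRNA replicates 1, 2 and 3, and a gene is said to have kept its call where all 6 called it. Bulk RNA was measured, so fewer cells of a type and less RNA per cell cannot be told apart.

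The scrambled cells had the granule proteins of the line, with means of 14.42 for CTSG, 13.73 for LYZ and 13.66 for ELANE, whereas the probe sets of the myeloid markers MPO (5.20) and SPI1 (6.40) read low. Of 15 measured myeloid markers, whose median was 10.26, 1 rose and 1 fell. Median levels of T cell, B cell, erythroid, megakaryocyte, epithelial and fibroblast markers lay between 4.38 and 6.42. The summed level of the 6 T cell markers was 34.6 to 35.7 in scrambled and 35.9 to 37.3 in CHD4 shRNA arrays, and that of the 4 megakaryocyte markers 23.7 to 24.3 and 25 to 26.2. Both sums were higher in the CHD4 shRNA arrays without overlap, each list with 1 riser, CD2 and ITGA2B. The sum of the 4 erythroid markers went the other way, at 25.3 to 25.8 in scrambled and 24.9 to 25.2 in CHD4 shRNA arrays. It did not overlap either, and KLF1 was its 1 faller. The part of these shifts in other results was not tested. Array medians over all probe sets were 6.97 to 7.01 in U937, and the 6 arrays correlated at 0.9876 or above.

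CHD4 itself read 10.31, 10.38 and 10.71 in the scrambled arrays and 8.23, 8.13 and 8.45 in the CHD4 shRNA arrays. The groups did not overlap, and the change of -2.20 (SE 0.14, limma adjusted p 8.78e-06) left 21.8% of the scrambled signal. The other CHD4 probe sets changed by -1.92 and -1.75, both past the threshold. A two-sided exact permutation test of 3 against 3 arrays gave p = 0.1, the smallest it allows. CHD4 shRNA replicate 2 read lowest and replicate 3 highest, a spread of 0.16 (SD) within the group.

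Of the 11963 genes, 320 rose (2.67%) and 441 fell (3.69%), which is 761 changed genes (6.36%). Rises of at least 2-fold numbered 55 (0.460%) and falls 51 (0.426%). The median change was 0.61 among rises and -0.61 among falls, and the smallest change called was 0.30. By the scrambled mean, a term of the change itself, 40 of the 55 large rises and 13 of the 51 large falls were below the median of all genes, 7.51. By the CHD4 shRNA mean 21 rises and 28 falls were below the median of 7.49, so the order of the levels turned, and by the mean of both groups 31 and 21 were below 7.51. The groups' arrays did not overlap for 3205 genes (26.8%) and for 760 of the 761 called, the exception being ADGRL1, singled out after its values were seen. Leaving out 1 array gave 328, 416, 393, 670, 306 and 363 changed genes, and 254 genes, 110 higher and 144 lower, kept their call.

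**Figure D1:**
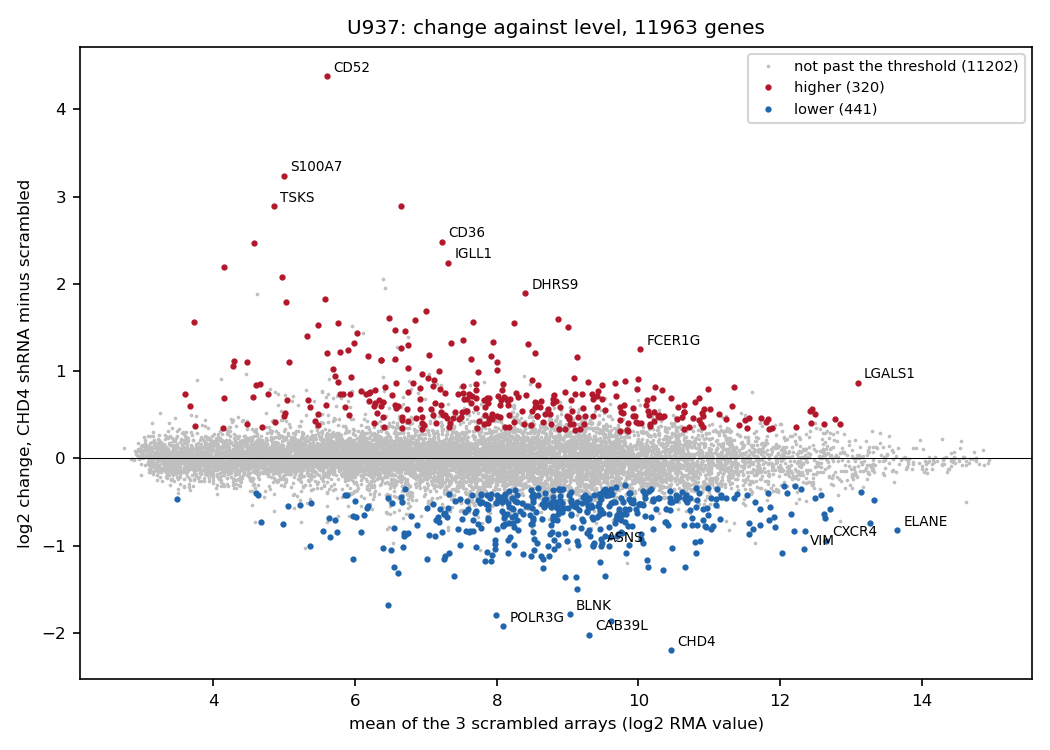
Log2 change against the mean of the 3 scrambled arrays (log2 RMA value) for 11963 genes in U937, with 320 genes past the threshold higher in red and 441 lower in blue. CD52 at 4.38 is the largest rise and CHD4 at -2.20 the largest fall. The horizontal axis is a term of the vertical one, so the place of a point to the left or right is not a separate result.

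CD52 had the largest rise, followed by S100A7, TSKS and CSRP3. CD52, a small anchored glycoprotein of lymphocytes and monocytes, read 5.80, 5.89 and 5.11 in scrambled and 9.38, 9.79 and 10.78 in CHD4 shRNA arrays. Its change of 4.38 (SE 0.32, limma adjusted p 2.05e-05) is 20.9-fold, and a second CD52 probe set changed by 2.80. S100A7, a calcium-binding antimicrobial protein of keratinocytes, read 5.20, 5.10 and 4.69 and then 8.19, 8.49 and 8.03, a rise of 3.24 (SE 0.22, limma adjusted p 1.18e-05). In both genes the groups lay far apart, with the dimmest CHD4 shRNA array more than 2 log2 units above the brightest scrambled array.

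The 250 bases before the RefSeq start site (GRCh38.p14) of these leading risers are shown because they hold few CpG dinucleotides, which are in capitals. CD52 (chr1:26317708-26317957, plus strand) has 3 and S100A7 (chr1:153460652-153460901, minus strand) has 1. HLA-DRB1 and HLA-DMA, which fell and are printed with the class II genes, hold as few, 1 and 3.
CD52: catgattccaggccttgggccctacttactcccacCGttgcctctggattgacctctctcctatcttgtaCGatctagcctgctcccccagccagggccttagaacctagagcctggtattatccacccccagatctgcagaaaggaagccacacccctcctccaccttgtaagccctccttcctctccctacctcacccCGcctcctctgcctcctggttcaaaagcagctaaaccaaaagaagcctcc
S100A7: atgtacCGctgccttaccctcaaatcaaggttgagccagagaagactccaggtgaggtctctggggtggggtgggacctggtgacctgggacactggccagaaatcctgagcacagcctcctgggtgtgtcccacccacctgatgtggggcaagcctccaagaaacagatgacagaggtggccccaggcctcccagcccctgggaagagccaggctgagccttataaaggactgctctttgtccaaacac

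TSKS, a substrate of testis-specific kinases, read 4.74, 4.84 and 4.97 in scrambled and 7.74, 7.71 and 7.77 in CHD4 shRNA arrays, a rise of 2.89 (SE 0.19, limma adjusted p 8.78e-06) with little spread inside either group. A second TSKS probe set changed by 0.46 and was not past the threshold. CSRP3, a LIM protein of striated muscle, read 6.58, 6.66 and 6.72 and then 8.85, 9.47 and 10.30, a rise of 2.89 (SE 0.30). The 3 CHD4 shRNA arrays of CSRP3 were spread over more than 1 log2 unit, and all were above every scrambled array.

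Among receptors, the scavenger receptor CD36 read 7.32, 7.31 and 7.07 in scrambled and 8.82, 9.19 and 11.14 in CHD4 shRNA arrays. Replicate 3 was far above the other 2, and the rise of 2.48 (SE 0.52, limma adjusted p 0.0139) lost its call without scrambled replicate 1 (adjusted p 0.051) or scrambled replicate 3 (0.057). Another CD36 probe set changed by 2.34 and the last by 0.35. IL1R2, a decoy receptor that traps interleukin 1, read 4.90, 4.66 and 4.14 and then 6.80, 6.88 and 7.44, a rise of 2.47 (SE 0.24) that kept its call. IGLL1, part of the surrogate light chain of the pre-B cell receptor, read 6.86, 6.46 and 8.61 and then 9.43, 9.59 and 9.64. Scrambled replicate 3 was higher than the other 2 there, yet below all CHD4 shRNA arrays, and the rise of 2.24 (SE 0.43) had an adjusted p of 0.052 without scrambled replicate 1. MS4A6A, a membrane-spanning protein of monocytes, rose by 1.56 (SE 0.18), and the anchored adhesion molecule CEACAM6 by 1.83 (SE 0.27) from a scrambled mean of 5.57 ± 0.31 (SD, n = 3).

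Several enzymes and signalling proteins rose by more than 2-fold. AKR1C3, an aldo-keto reductase of steroids, prostaglandins and anthracyclines, read 4.41, 4.09 and 3.94 in scrambled and 5.54, 5.79 and 7.68 in CHD4 shRNA arrays, and replicate 3 again stood highest. The rise was 2.19 (SE 0.43, limma adjusted p 0.0102) and kept its call. AIM2, a sensor of cytosolic DNA, read 5.06, 5.11 and 4.72 and then 6.22, 6.86 and 8.06, a rise of 2.08 whose adjusted p was 0.051 without scrambled replicate 3. DHRS9, a short-chain dehydrogenase of retinol and steroids, rose by 1.90 (SE 0.31) and EYA1, a coactivator with phosphatase activity, by 1.79 (SE 0.20). The gelatinase MMP9 read 7.05, 7.20 and 6.77 and then 8.30, 8.57 and 9.23, without overlap, and rose by 1.69. SAMSN1, an adaptor of blood cells, rose by 1.61 (SE 0.12), the microtubule protein MAP7 by 1.58 (SE 0.19) and the focal adhesion LIM protein TGFB1I1 by 1.56 (SE 0.13), all with calls kept. HDAC9, a deacetylase, rose by 1.55 (SE 0.27). DUSP6, a phosphatase of ERK kinases, had a change of 1.60 (SE 0.41, limma adjusted p 0.0367), which no fit without 1 array called (adjusted p 0.0572 to 0.144). CXCL11, an interferon-induced chemokine, had 1.56 and an adjusted p of 0.0361 to 0.103 in those fits, over the threshold without scrambled replicates 1, 2 or 3 or CHD4 shRNA replicate 3. Its other probe set changed by 0.51 and was not past the threshold.

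**Figure D2:**
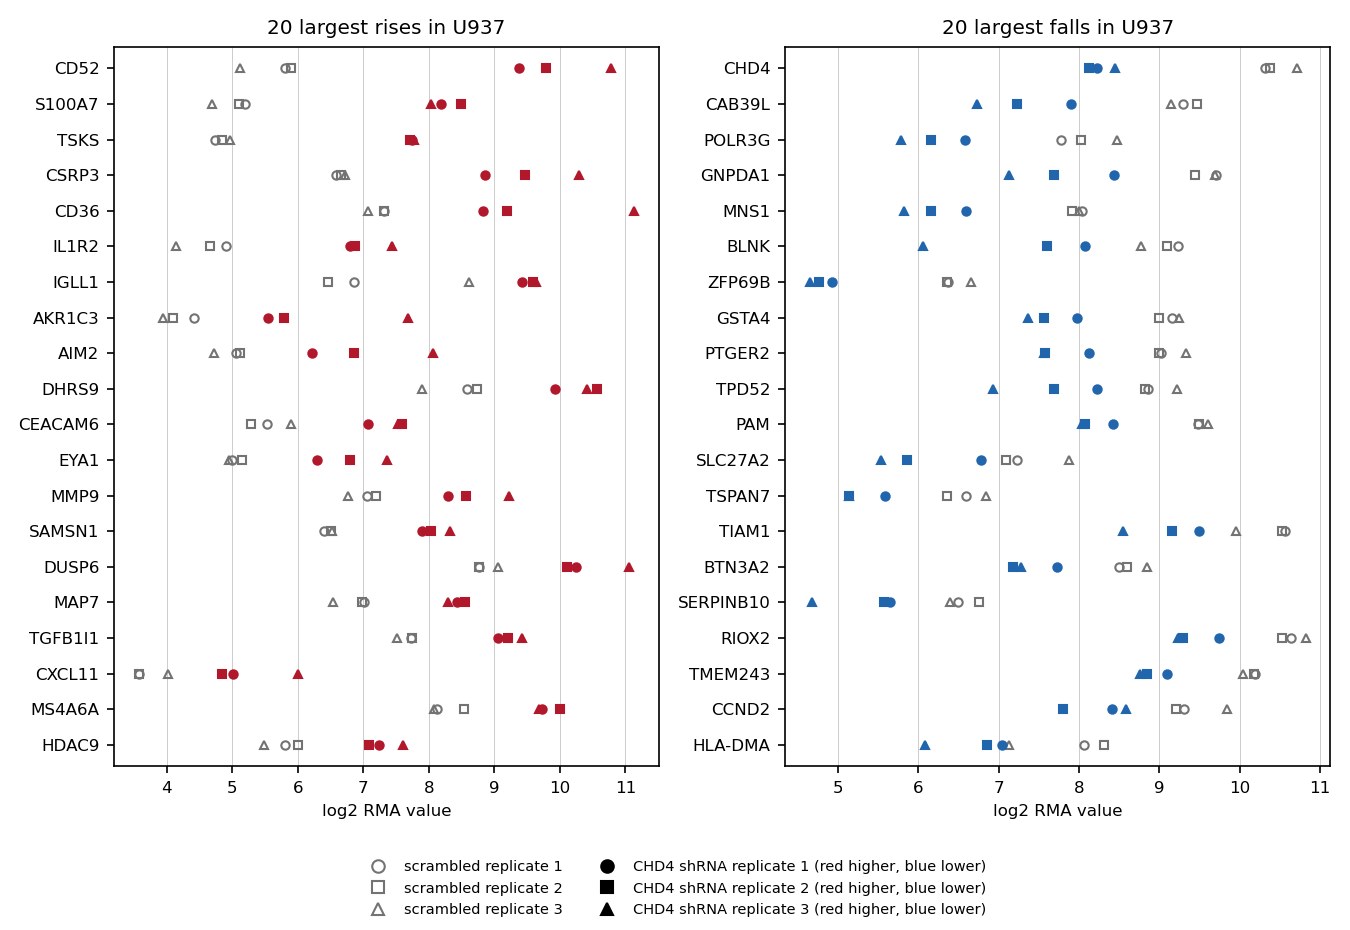
Log2 RMA values of the 20 largest rises (left) and 20 largest falls (right) in U937, open symbols for the 3 scrambled and filled symbols for the 3 CHD4 shRNA arrays, with the replicate given by the symbol's shape. No gene's groups overlap, and CD52 runs from 5.11 to 10.78.

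After CHD4, the largest falls were those of CAB39L, POLR3G, GNPDA1 and MNS1. CAB39L, an MO25 scaffold of the kinase LKB1, read 9.29, 9.47 and 9.15 in scrambled and 7.90, 7.23 and 6.73 in CHD4 shRNA arrays. The fall of 2.02 on the log2 scale (SE 0.42, limma adjusted p 0.0139) left the arrays apart, but its adjusted p was 0.053 and 0.057 without scrambled replicates 1 and 2, and 0.057 and 0.065 without CHD4 shRNA replicates 2 and 3. POLR3G, a subunit of RNA polymerase III, read 7.78, 8.03 and 8.47 and then 6.58, 6.16 and 5.79. It fell by 1.92 on the log2 scale (SE 0.23) and kept its call, while its other probe set changed by -0.29 and was not past the threshold. GNPDA1, which turns glucosamine phosphate into fructose phosphate, read 9.70, 9.45 and 9.69 and then 8.43, 7.69 and 7.13, a change of -1.86 (SE 0.25). MNS1, a protein of sperm flagella, read 8.04, 7.91 and 8.0 and then 6.60, 6.16 and 5.82, a change of -1.79 (SE 0.20). In each of these genes CHD4 shRNA replicate 1 was nearest to the scrambled arrays and replicate 3 farthest.

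The B cell adaptor BLNK read 9.23, 9.09 and 8.77 in scrambled and 8.08, 7.60 and 6.06 in CHD4 shRNA arrays, a change of -1.78 (SE 0.43, limma adjusted p 0.0301). Replicate 3 was far below the others, and BLNK was past the threshold in 1 of the 6 fits, without CHD4 shRNA replicate 1 (adjusted p 0.0121 to 0.111 over the 6). The zinc finger protein ZFP69B fell by 1.68 on the log2 scale (SE 0.14, limma adjusted p 5.62e-05), with groups of small spread. GSTA4, a glutathione transferase of lipid peroxidation products, changed by -1.49 (SE 0.18), the prostaglandin receptor PTGER2 by -1.36 (SE 0.19), and PAM, which amidates peptide hormones, by -1.34 (SE 0.12, limma adjusted p 8.26e-05). TPD52 changed by -1.35, the tetraspanin TSPAN7 by -1.31, the RAC activator TIAM1 by -1.28, the butyrophilin BTN3A2 by -1.25, the serpin SERPINB10 by -1.25, the ribosomal oxygenase RIOX2 by -1.24 and TMEM243 by -1.24, all with calls kept. SLC27A2, an acyl-CoA synthetase of very long chain fatty acids, changed by -1.34, but its adjusted p was 0.057 and 0.092 without scrambled replicates 1 and 3 and 0.094 and 0.092 without CHD4 shRNA replicates 2 and 3.

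Abundant transcripts were among the changed genes too, and the median change over all falls was -0.61. The neutrophil elastase gene ELANE read 13.75, 13.85 and 13.37 in scrambled and 13.06, 13.07 and 12.39 in CHD4 shRNA arrays, a change of -0.82 (SE 0.17, limma adjusted p 0.0149), with adjusted p 0.069 and 0.068 without scrambled replicates 1 and 2. GLUL, glutamine synthetase, fell by 0.73 on the log2 scale (SE 0.12) from 13.27 ± 0.12 (SD, n = 3), and its other probe sets by 1.11 and 1.07 on that scale. MDH1, cytosolic malate dehydrogenase, had -0.47 and was called in 1 of the 6 fits, without CHD4 shRNA replicate 1.

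Integrins, tetraspanins and galectins gave the list with the most rises. Of 32 measured integrin and adhesion genes, 11 rose (34.4%, against 2.67% of all genes) and 1 fell, with a median change of 0.13 against -0.003 over all genes. Without 1 array 7, 8, 5, 8, 6 and 5 rose. The tetraspanin CD81 read 5.53, 5.72 and 5.20 in scrambled and 6.75, 6.99 and 7.29 in CHD4 shRNA arrays and rose by 1.53 (SE 0.34, limma adjusted p 0.0186, 0.0278 to 0.0806 in the 6 fits). ITGA2B, the platelet integrin alpha chain, read 6.73, 6.49 and 7.01 and then 7.78, 8.03 and 8.31 and rose by 1.30 (SE 0.20). ICAM3, a ligand of the leukocyte integrins, rose by 0.88 (SE 0.12, limma adjusted p 0.00105) and LGALS1, a secreted galectin, by 0.87 (SE 0.13) from an already high 13.10 ± 0.06 (SD, n = 3). Smaller rises were seen for LGALS8 at 0.68, the tetraspanin CD82 at 0.67, the integrin chains ITGAX at 0.57, ITGB1 at 0.54, ITGA5 at 0.49 and ITGB2 at 0.34, and the actin linker VCL at 0.34. ITGA6, the laminin receptor chain, was the member that fell, from 10.04, 10.24 and 10.34 to 9.63, 9.33 and 9.25, a change of -0.80 (SE 0.13). ITGA2B, ICAM3, LGALS1, LGALS8, ITGB1 and ITGA6 kept their calls. Other probe sets of ITGB1 changed by 0.04 to 0.29 and that of VCL by -0.08, none past the threshold. Those of ITGA2B changed by 1.97, which passed, and by 0.47 and -0.15, which did not. Those of LGALS8 changed by 0.06 to 0.61, with only the 0.61 past it, and that of ITGA6 by -1.07, past it.

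Rises also outnumbered falls among Fc receptor signalling genes and S100 proteins. Of 26 Fc receptor and ITAM genes 5 rose (19.2%, against 2.67% of all genes) and 1 fell (BLNK, 3.85%, against 3.69%). Without 1 array 1, 1, 1, 5, 1 and 1 rose. FCER1G, the signalling chain of Fc receptors, read 10.26, 10.34 and 9.47 in scrambled and 11.10, 11.22 and 11.51 in CHD4 shRNA arrays and rose by 1.25 (SE 0.20), the member that kept its call. The kinase FGR had 0.79, the receptor chain CD79B 0.60, the exchange factor VAV1 0.47 and the phosphatase INPP5D 0.34. Of 17 S100 proteins 4 rose (23.5%) and 0 fell, with a median change of 0.18 and 2, 2, 1, 3, 2 and 1 rising without 1 array. Besides S100A7 these were S100P at 0.51 from 12.49 ± 0.06 (SD, n = 3), S100A1 at 0.47 and S100A13 at 0.35. S100A7 kept its call, and S100A13 and S100P were called in 0 of the 6 fits.

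Myeloid lists held calls in both directions. Higher were 7.32% of monocyte and macrophage markers, 6.45% of granule proteins and 5.71% of myeloid transcription factors, against 2.67% of all genes. Lower were 2.44%, 6.45% and 2.86%, against 3.69%. Each of these list shares rests on 1 to 3 genes. Of 41 monocyte and macrophage markers 3 rose and 1 fell, with a median change of 0.090 and 2, 3, 1, 3, 2 and 2 rising without 1 array. AIF1, a macrophage actin-binding protein, rose by 0.46 (SE 0.09) and the immunoglobulin-like receptor LILRA2 by 0.40 (SE 0.08) beside CD36, while CTSD, cathepsin D, changed by -0.62 (SE 0.11) and kept its call. In the granule protein list 2 of 31 rose and 2 fell, and 0, 0, 2, 1, 1 and 1 fell without 1 array. The defensin DEFA4 read 5.90, 5.70 and 5.21 in scrambled and 6.44, 7.19 and 6.79 in CHD4 shRNA arrays and rose by 1.20 (SE 0.22) with CEACAM6, whereas ELANE and CEACAM8 fell. CEACAM8 read 3.48 ± 0.21 (SD, n = 3) in scrambled arrays, a dim gene whose change of -0.46 was called in 0 of the 6 fits (adjusted p 0.0667 to 0.164). Of 35 myeloid transcription factors 2 rose and 1 fell. The inhibitor of basic helix-loop-helix factors ID2 rose by 0.57 (SE 0.11), the homeobox factor MEIS1 by 0.69 (SE 0.14), and the ETS factor ERG fell by 0.83 on the log2 scale (SE 0.14). ID2 and ERG kept their calls, and MEIS1 had an adjusted p of 0.02 to 0.0616 in the 6 fits. Other ERG probe sets changed by -0.30 and -0.19 and were not past the threshold.

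Lymphoid and other blood lineage lists held isolated changes. Higher were 7.14% of the T and NK, 11.1% of the B cell and 5.0% of the erythroid list, against 2.67% of all genes. Lower were 0%, 11.1% and 5.0%, against 3.69%. Of 28 T and NK cell markers 2 rose and 0 fell. The adhesion receptor CD2 read 5.41, 5.36 and 5.19 in scrambled and 6.38, 7.05 and 6.74 in CHD4 shRNA arrays, a rise of 1.40 (SE 0.17, limma adjusted p 0.000702), while CD3D, CD3E and CD3G had means of 6.32 or less in scrambled arrays. CD52 was the other riser of that list. Of 18 B cell markers 2 rose (IGLL1 and CD79B) and 2 fell, BLNK and the lineage factor PAX5. PAX5 changed by -0.90 (SE 0.14), and its other probe set by 0.01. Among 20 erythroid, megakaryocyte and mast cell genes 1 rose (ITGA2B) and 1 fell, the erythroid factor KLF1 at -1.03 (SE 0.25), which was called in 1 of the 6 fits.

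Amino acid supply formed the list with the most falls. ATF4 is the transcription factor of the integrated stress response, and its targets include asparagine synthetase, amino acid transporters and tRNA synthetases. Of 41 measured genes 13 fell (31.7%, against 3.69% of all genes) and 0 rose, with a median change of -0.32 against -0.003. Medians over the list in the 3 CHD4 shRNA arrays were -0.21, -0.41 and -0.41. Without 1 array 3, 6, 4, 14, 2 and 4 members fell, so the count was as large without CHD4 shRNA replicate 1 and more than 2-fold smaller without any other array.

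The promoters of ASNS and IARS1 are shown because both genes fell and both hold the letters TGATGNAA, an ATF4 composite motif, in the 250 bases before the start site. Capitals mark the motif, on the reverse strand in IARS1. RefSeq (GRCh38.p14) places these windows at chr7:97872409-97872658, minus strand, for ASNS, and at chr9:92293698-92293947, minus strand, for IARS1.
ASNS: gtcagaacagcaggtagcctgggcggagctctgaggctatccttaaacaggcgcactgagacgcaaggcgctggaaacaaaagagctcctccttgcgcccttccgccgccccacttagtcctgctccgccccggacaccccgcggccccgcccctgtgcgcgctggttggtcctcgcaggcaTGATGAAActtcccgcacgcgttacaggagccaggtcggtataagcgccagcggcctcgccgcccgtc
IARS1: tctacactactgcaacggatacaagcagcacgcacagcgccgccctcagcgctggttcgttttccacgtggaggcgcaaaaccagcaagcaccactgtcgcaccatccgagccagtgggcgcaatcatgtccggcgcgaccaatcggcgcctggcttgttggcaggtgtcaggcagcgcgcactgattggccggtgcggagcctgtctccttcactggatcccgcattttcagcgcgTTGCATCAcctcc
Searched on both strands in the 300 bases from 250 before to 50 after the start, TGATGNAA was found for 2.25% of the 9563 genes with a window. It was found for 9 of 34 list members with a window (26.5%) and for 3 of the 12 that fell and had one, ASNS, IARS1 and SLC7A1. It was found for 2.13% of all falling genes, which is near the share of all genes. The list was written from known targets, so a high share in it is part of how it was chosen.

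Asparagine synthetase, ASNS, read 9.56, 9.41 and 9.43 in scrambled and 8.97, 8.61 and 7.81 in CHD4 shRNA arrays, a fall of 1.0 on the log2 scale (SE 0.23, limma adjusted p 0.0199). The cystine transporter SLC7A11 read 8.68, 8.88 and 8.67 and then 8.21, 7.50 and 7.16, a change of -1.12 (SE 0.23). Scrambled arrays lay close together in both genes, while the CHD4 shRNA arrays spanned more than 1 log2 unit, with replicate 1 nearest to the scrambled arrays and replicate 3 farthest. DDIT4, an inhibitor of mTOR signalling, read 9.15, 9.29 and 9.38 and then 8.91, 8.51 and 7.84, a change of -0.85 (SE 0.23). Biosynthetic enzymes fell as well, ALDH18A1 of proline synthesis by 0.73 on the log2 scale (SE 0.11) and PSAT1 of serine synthesis by 0.65 (SE 0.14). ATF4 itself fell by 0.41 on that scale (SE 0.09) from 12.58 ± 0.09 (SD, n = 3). The tRNA synthetase EPRS1 changed by -0.68, IARS1 by -0.57 and SARS1 by -0.45. Among amino acid transporters, SLC7A1 changed by -0.56, SLC1A5 by -0.45, SLC38A2 by -0.44 and SLC1A4 by -0.37. ALDH18A1 and IARS1 kept their calls. ASNS lost it without scrambled replicates 1, 2 and 3 (adjusted p 0.083, 0.058 and 0.061) and CHD4 shRNA replicate 2 (0.053), and SLC7A11 without scrambled replicate 2 (0.058) and CHD4 shRNA replicates 2 and 3 (0.064 and 0.059).

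HLA class II proteins display peptides to helper T cells, and the members past the threshold were all lower. Of 16 measured genes of class II presentation 4 fell (25%, against 3.69% of all genes) and 0 rose (2.67% of all genes). The median change was -0.13, and 2, 2, 3, 4, 2 and 2 fell without 1 array. HLA-DRB1 read 9.26, 9.34 and 8.85 in scrambled and 8.32, 8.22 and 7.94 in CHD4 shRNA arrays, a change of -0.99 (SE 0.14, limma adjusted p 0.00158) that kept its call. HLA-DRA, its partner chain, read 8.30, 8.39 and 8.05 and then 7.90, 7.12 and 6.75, a change of -0.99 (SE 0.26, adjusted p 0.0388). HLA-DRA was called in 1 of the 6 fits, without CHD4 shRNA replicate 1 (adjusted p 0.00503 to 0.149). HLA-DMA, a peptide exchange chain, read 8.06, 8.31 and 7.13 and then 7.04, 6.85 and 6.08. Scrambled replicate 3 and CHD4 shRNA replicate 1 nearly met, and the change of -1.18 (SE 0.29) lost its call without scrambled replicates 1 and 2 (0.12 and 0.13) and CHD4 shRNA replicates 2 and 3 (0.073 and 0.12). RFX5, a factor that binds class II promoters, fell by 0.46 on the log2 scale (SE 0.09) and kept its call. CIITA, the class II coactivator, had -0.05 (adjusted p 0.87) and the invariant chain CD74 -0.06 (adjusted p 0.914), both singled out after their values were seen. None of 17 class I and peptide loading genes passed the limma threshold, with a median of 0.16. At an unadjusted p under 0.05 there were 5 higher and 2 lower, where 19.0% of all genes were under it. HLA-F had the lowest p of that list with 0.40 (adjusted p 0.104). HLA genes are close relatives, and their probe sets may read related copies.

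**Figure D3:**
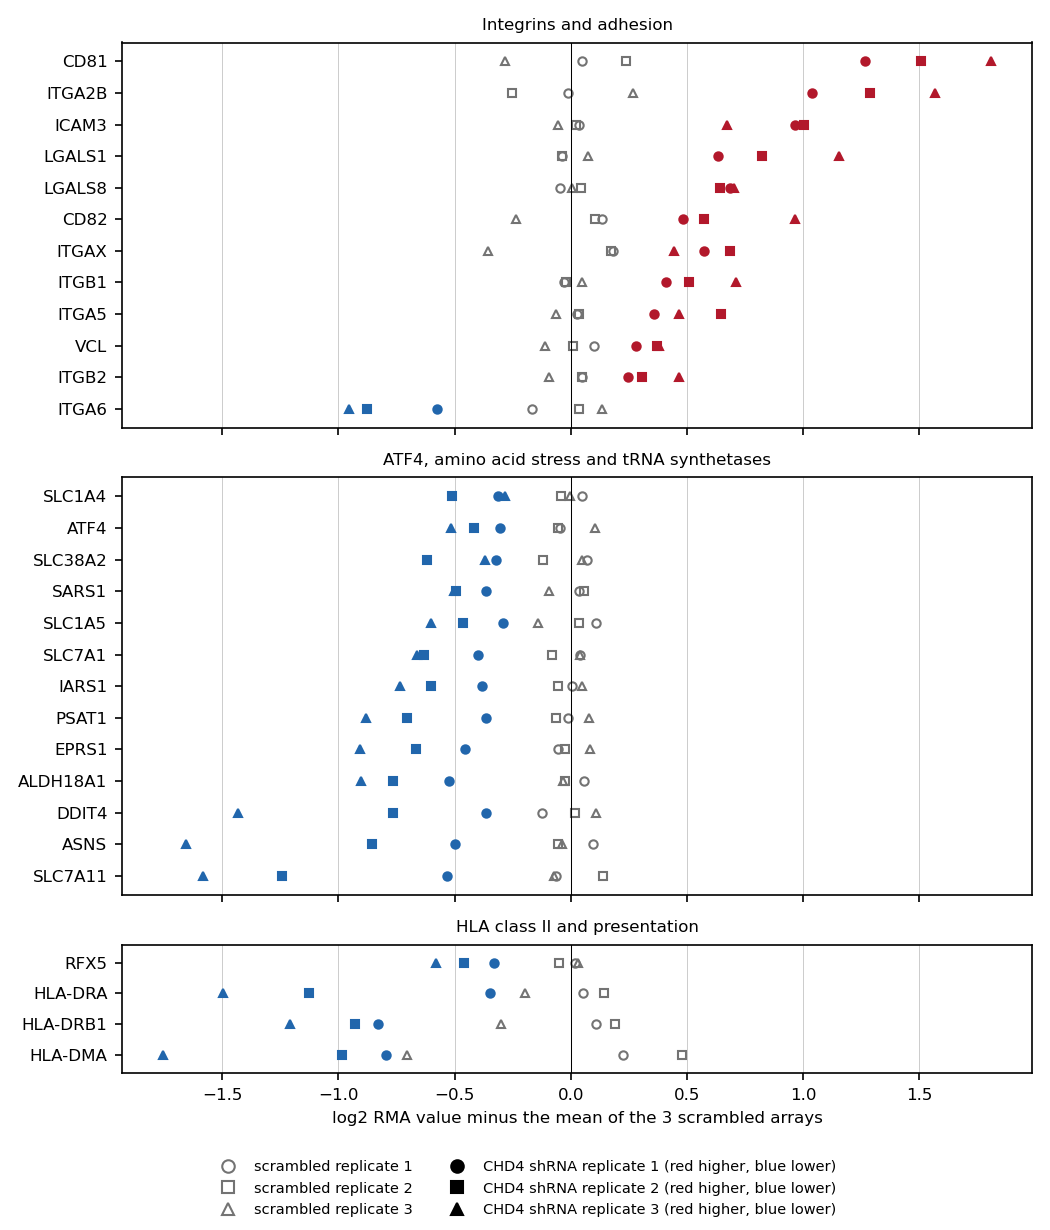
Log2 RMA value minus the mean of the 3 scrambled arrays for the members past the threshold of 3 gene lists (integrins and adhesion, amino acid stress, HLA class II), open symbols for scrambled and filled symbols for CHD4 shRNA arrays. In the amino acid stress list the fall in ASNS is -0.50 in replicate 1 and -1.66 in replicate 3, and HLA-DMA is the member whose groups come closest.

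The promoters of HLA-DRB1 (chr6:32589849-32590098, minus strand) and HLA-DMA (chr6:32953098-32953347, minus strand) are shown for the letters CTGATTGG, the Y box of class II promoters, in capitals (RefSeq, GRCh38.p14).
HLA-DRB1: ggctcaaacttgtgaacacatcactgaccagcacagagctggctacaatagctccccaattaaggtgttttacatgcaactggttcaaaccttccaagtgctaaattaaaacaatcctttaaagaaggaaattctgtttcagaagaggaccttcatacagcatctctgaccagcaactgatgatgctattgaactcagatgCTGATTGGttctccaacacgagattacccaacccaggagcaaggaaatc
HLA-DMA: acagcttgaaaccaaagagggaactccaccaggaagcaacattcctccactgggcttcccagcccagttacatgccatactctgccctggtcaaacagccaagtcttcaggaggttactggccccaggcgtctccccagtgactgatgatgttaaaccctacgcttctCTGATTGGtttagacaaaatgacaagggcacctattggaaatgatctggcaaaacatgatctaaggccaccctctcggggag
On either strand, CTGATTGG was found for 4.94% of the genes with a window and for 4 of 14 class II members with a window. All 3 falling class II members with a window hold it, HLA-DRB1, HLA-DMA and RFX5, and so does HLA-DQB1, which was not past the threshold. The Y box is known from class II promoters, so a high share in this list is part of how the motif was chosen. It was found for 4.53% of all falling genes.

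Interferon-stimulated genes rose in 4 of 38 cases (10.5%, against 2.67% of all genes) and fell in 0 (3.69% of all genes). Their median was 0.14, and 1, 2, 1, 4, 1 and 1 rose without 1 array. IFITM1, a membrane protein that restricts viral entry, read 9.08, 9.15 and 8.80 in scrambled and 10.42, 10.71 and 10.40 in CHD4 shRNA arrays and rose by 1.5 (SE 0.25, limma adjusted p 0.00466), with its call kept. IFI6 had a change of 0.93, the factor IRF7 of 0.87 and the nuclear DNA sensor IFI16 of 0.61, each past the threshold in 1 or 2 of the 6 fits.

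Among receptors that sense chemokines, prostaglandins and acid, changes went both ways. Of 40 chemoattractant and G protein-coupled receptor genes 3 rose (7.5%, against 2.67% of all genes) and 4 fell (10.0%, against 3.69%). Without 1 array 2, 2, 2, 3, 2 and 2 rose and 2, 2, 3, 2, 2 and 2 fell. CXCR4, the receptor of the marrow chemokine CXCL12, read 12.70, 12.61 and 12.62 in scrambled and 11.78, 11.52 and 11.81 in CHD4 shRNA arrays, a change of -0.94 (SE 0.11, limma adjusted p 0.000607), and its other probe sets changed by -0.98 and -0.97. The G protein subunit GNAI2 read 9.32, 9.46 and 9.50 and then 10.08, 10.22 and 10.30, a rise of 0.77 (SE 0.10). These groups were far apart for their spread, and both kept their calls, as did PTGER2. RGS1, which shortens G protein signals, rose by 0.88 (SE 0.17), with other probe sets at 0.16 and 0.11, not past the threshold. ADGRE5 had 0.52. The acid-sensing receptor GPR65 had -0.87 and RGS2 -0.58, called in 1 and 0 of the 6 fits.

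Cytokines and their receptors showed single changes in both directions. Of 31 cytokines and chemokines 1 rose (3.23%, against 2.67% of all genes) and 3 fell (9.68%, against 3.69%). Without 1 array 1, 1, 1, 3, 1 and 1 fell. IL1A, an alarm cytokine, rose by 0.49 (SE 0.10) while another probe set changed by -0.17, and IL16 fell by 0.79 on the log2 scale (SE 0.14) with its call kept. IL32 had -0.67 and the angiogenic factor VEGFA -0.57, each called in 1 of the 6 fits. Of 50 cytokine receptor genes 2 rose (4.0%) and 3 fell (6.0%), shares not far from those of all genes. The risers were IL1R2 and the kinase JAK1 at 0.36 (called in 1 of the 6 fits), and 1, 1, 1, 3, 0 and 1 fell without 1 array. TNFRSF21, a death receptor, read 8.71, 8.76 and 8.71 in scrambled and 7.83, 7.48 and 7.87 in CHD4 shRNA arrays, a change of -1.0 (SE 0.19). The feedback inhibitor SOCS2 had -0.87 and the interleukin 6 receptor IL6R -0.42. Among 37 extracellular proteases and inhibitors 3 rose (8.11%) and 0 fell, and 2, 2, 1, 2, 1 and 1 rose without 1 array. With MMP9 these were the leukocyte protease MMP25 at 0.50 and the sheddase ADAM10 at 0.42, called in 3 and 0 of the 6 fits. Another MMP25 probe set changed by -0.22 and was not past the threshold.

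The genes of drug and genotoxin handling bear on the question in the title, and both directions occurred. Of 32 measured 4 rose (12.5%, against 2.67% of all genes) and 2 fell (6.25%, against 3.69%). The median was 0.037, and without 1 array 2, 2, 2, 3, 2 and 2 rose and 1, 1, 2, 2, 0 and 2 fell. AKR1C1, a relative of AKR1C3, read 6.65, 6.33 and 6.27 in scrambled and 6.83, 7.23 and 7.63 in CHD4 shRNA arrays and rose by 0.81 (SE 0.18). AKR1C2 read 6.04, 6.39 and 6.15 and then 6.65, 6.82 and 7.36 and rose by 0.75 (SE 0.16). All 3 AKR1C genes were highest in CHD4 shRNA replicate 3, their probe sets may read related copies, and AKR1C1 had an adjusted p of 0.00503 to 0.0795 in the 6 fits. They were also the 3 risers among 20 aldo-keto reductase and steroid enzymes, of which 0 fell. The efflux pump ABCC1 had a change of 0.49 (SE 0.12) and the pump ABCC4 of -0.89 (SE 0.18), in opposite directions. TOP1, the topoisomerase that camptothecins trap, read 11.27, 11.27 and 11.17 and then 10.85, 10.71 and 10.80, a fall of 0.45 on the log2 scale (SE 0.10, limma adjusted p 0.0217, 0.036 to 0.0971 in the 6 fits).

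DNA repair genes that passed the threshold were mostly lower. Of 33 genes of double-strand break repair and checkpoints 4 fell (12.1%, against 3.69% of all genes) and 0 rose (2.67% of all genes). The median was -0.063, and 1, 3, 1, 3, 1 and 1 fell without 1 array. MDC1, which gathers repair proteins at marked chromatin, read 9.69, 9.72 and 10.04 in scrambled and 9.19, 8.93 and 9.16 in CHD4 shRNA arrays, a change of -0.72 (SE 0.12) with its call kept. The checkpoint kinase CHEK2 read 9.53, 9.52 and 9.71 and then 9.02, 8.81 and 8.59, a change of -0.78 (SE 0.17), and lost its call without scrambled replicates 1 and 3 (adjusted p 0.051 and 0.065) and CHD4 shRNA replicates 2 and 3 (0.057 and 0.07). The helicase WRN had -0.67 and the end-joining factor XRCC4 -0.42, called in 2 and 0 of the 6 fits. Of 33 excision, mismatch and crosslink repair genes 3 fell (9.09%) and 1 rose (3.03%), with 1, 2, 1, 3, 1 and 2 falling without 1 array. FANCF, of the Fanconi core complex, changed by -0.70 (SE 0.13) with its call kept, the nucleotide excision factor XPA by -0.65 and the ligase LIG3 by -0.48. XPA lost its call without scrambled replicates 1, 2 or 3 or CHD4 shRNA replicates 2 or 3 (adjusted p 0.085 to 0.14). LIG3 and the glycosylase MPG, which rose by 0.41, were each called in 2 of the 6 fits.

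Targets of p53 and regulators of apoptosis gave small counts. Of the p53 targets 8.7% were higher and 4.35% lower, and of the apoptosis regulators 3.12% and 0%. Over all genes these shares were 2.67% and 3.69%. Of 23 p53 target genes 2 rose, the ribosomal protein relative RPS27L by 0.57 (SE 0.09) and the antiproliferative BTG1 by 0.59 (SE 0.12), both with calls kept, and GADD45A had -0.70, called in 0 of the 6 fits. As background, U937 is known to carry mutant p53. Of 32 apoptosis regulators 1 rose, the BH3 protein BIK at 0.57 (adjusted p 0.0704 to 0.147 in the 6 fits), and 0 fell.

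Cell cycle lists held calls near or below the shares of all genes, 2.67% higher and 3.69% lower. Of 51 replication and G1/S genes 1 rose (1.96%) and 2 fell (3.92%). The kinase inhibitor CDKN1C read 6.25, 6.16 and 6.67 in scrambled and 7.24, 7.36 and 7.85 in CHD4 shRNA arrays and rose by 1.12 (SE 0.23), with other probe sets between -0.14 and 0.77. Cyclin CCND2 read 9.31, 9.21 and 9.84 and then 8.41, 7.80 and 8.59, a change of -1.19 (SE 0.29), lost without scrambled replicates 1, 2 and 3 (adjusted p 0.074, 0.055 and 0.12) and CHD4 shRNA replicate 2 (0.13). The ligase LIG1 fell by 0.54 on the log2 scale (SE 0.11) with its call kept. In the G2/M and mitosis list 1 of 39 rose (2.56%), the spindle protein PRC1 at 0.38 (limma adjusted p 0.0387, called in 2 of the 6 fits). Yet 37 of the 39 members had a change above 0, against 49.4% of all genes. The list median was 0.20, with 0.083, 0.14 and 0.39 in the 3 CHD4 shRNA arrays. UBE2C had 0.69 (adjusted p 0.0608) and KIF20A 0.44 (adjusted p 0.0641). Of 36 replication-dependent histones 0 rose and 0 fell by the limma test, and H3C2 had 0.62 (adjusted p 0.212). The median of the histone list was 0.16, and at an unadjusted p under 0.05 there were 4 higher and 0 lower. Of all genes 19.0% were under that unadjusted p.

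MYC and other genes of ribosome production gave falls and no rises. Of 29 MYC and ribosome biogenesis genes 4 fell (13.8%, against 3.69% of all genes) and 0 rose (2.67% of all genes). The median was -0.23, and 1, 1, 0, 3, 0 and 1 fell without 1 array. MYC read 12.29, 12.22 and 12.55 in scrambled and 11.85, 11.38 and 11.35 in CHD4 shRNA arrays, a change of -0.83 (SE 0.20, limma adjusted p 0.031), and was called in 1 of the 6 fits, without CHD4 shRNA replicate 1. MXI1, an antagonist of MYC, read 10.94, 10.84 and 10.84 and then 10.35, 9.96 and 9.46, a change of -0.95 (SE 0.24). CAD of pyrimidine synthesis had -0.48, called in 4 of the 6 fits. The RNA acetyltransferase NAT10 had -0.51, with adjusted p 0.065 to 0.16 in the 6 fits. The RNA polymerase III list had 2 falls (10.0%), POLR3G and the assembly factor GTF3A at -0.32 (called in 0 of the 6 fits), and 0 rises among 20. None of 29 cytosolic ribosomal proteins passed the limma threshold, or an unadjusted p under 0.05, with a median of -0.040 and RPL12 at -0.16 (adjusted p 0.312).

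Sugar uptake and glycolysis genes gave more falls than rises. Of 37 glycolysis and hypoxia genes 6 fell (16.2%, against 3.69% of all genes) and 1 rose (2.7%, against 2.67%). The median was 0.017, and 4, 5, 4, 6, 4 and 5 fell without 1 array. The fructose transporter SLC2A5 read 10.14, 10.10 and 10.14 in scrambled and 9.24, 8.83 and 8.84 in CHD4 shRNA arrays, a change of -1.16 (SE 0.11, limma adjusted p 0.00014). PDK1, which restrains pyruvate dehydrogenase, read 10.03, 9.86 and 10.21 and then 9.38, 9.13 and 9.01, a change of -0.86 (SE 0.16). Hexokinase HK2 read 10.34, 10.25 and 10.65 and then 9.70, 9.45 and 9.79, a change of -0.77 (SE 0.14). All 3 were apart between groups and kept their calls. Another HK2 probe set changed by -0.33 and was not past the threshold. The isomerase GPI had -0.39, and with GNPDA1 and VEGFA completes the falls, while the muscle phosphofructokinase PFKM rose by 0.76 (SE 0.10). Of 39 respiratory chain subunits 1 fell (2.56%), NDUFA9 at -0.46 (called in 4 of the 6 fits), and 0 rose. In the LKB1 and AMPK list 2 of 27 fell (7.41%) and 0 rose, CAB39L with the AMPK subunit PRKAG1 at -0.69 (SE 0.14), called in 2 and 4 of the 6 fits.

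Genes of lipid synthesis gave falls and no rises. Of 28 cholesterol and fatty acid synthesis genes 4 fell (14.3%, against 3.69% of all genes) and 0 rose (2.67% of all genes). The median was -0.23, and 1, 1, 2, 4, 1 and 1 fell without 1 array. Phosphomevalonate kinase, PMVK, read 9.29, 9.45 and 9.58 in scrambled and 8.86, 8.67 and 8.86 in CHD4 shRNA arrays, a change of -0.64 (SE 0.12) with its call kept. IDI1 read 12.29, 12.29 and 12.01 and then 11.55, 11.28 and 11.26, a change of -0.83 (SE 0.19), called in 2 of the 6 fits. The sterol reductase DHCR7 and desaturase SC5D had -0.77 and -0.81, each called in 1 of the 6 fits. Of 29 sterol efflux and lipid handling genes 1 rose (CD36) and 1 fell, the retinoid X receptor RXRB at -0.46 (SE 0.09), with other probe sets at -0.68 and 0.08. In the lysosome list 2 of 41 rose, progranulin GRN by 0.56 (SE 0.12) and the sulfatase IDS by 0.73 (SE 0.16), called in 4 and 2 of the 6 fits, and 1 fell (CTSD). Shares higher were 3.45% for sterol efflux and 4.88% for lysosome, and shares lower 3.45% and 2.44%, not far from those of all genes.

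Protein folding and oxidative stress genes gave small counts. Lower were 11.5% of the endoplasmic reticulum list, 0% of heat shock proteins and 3.23% of oxidative stress and iron genes, against 3.69% of all genes. Higher were 3.85%, 5.26% and 3.23%, against 2.67%. Of 26 endoplasmic reticulum chaperone and unfolded protein genes 3 fell and 1 rose. HERPUD1 had -0.77, DERL1 -0.40 and HYOU1 -0.35, called in 2, 1 and 0 of the 6 fits. The riser was EDEM1 at 0.61, called in 0 of the 6 fits. The median of that list was -0.17, and without 1 array 0, 0, 1, 2, 0 and 0 fell. Of 19 heat shock proteins 1 rose, the testis member HSPA1L by 0.48 (SE 0.10, called in 2 of the 6 fits), and 0 fell. Catalase, CAT, had 0.39 and superoxide dismutase SOD1 -0.38, the 1 rise and 1 fall among 31 oxidative stress and iron genes, called in 1 and 0 of the 6 fits. NQO1 had -0.74 (adjusted p 0.0582). Of 32 MAP kinase feedback and immediate early genes 1 rose (DUSP6) and 0 fell.

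Apart from CHD4, no NuRD subunit passed the threshold. Of 13 NuRD subunits 1 fell, CHD4, and 0 rose. The paralogue CHD3 had -0.17 (SE 0.09, adjusted p 0.367) and CDK2AP1, a small subunit, 0.67 (SE 0.20, adjusted p 0.0651), with values of 9.92, 9.86 and 10.22 and 10.43, 10.49 and 11.08. A change of CDK2AP1 was therefore not resolved here, although its groups did not overlap. Of 60 other remodelers and chromatin enzymes 1 rose (HDAC9) and 1 fell, the SWI/SNF subunit SMARCE1 at -0.44, called in 1 of the 6 fits. Both shares were 1.67%, below the 2.67% and 3.69% of all genes. The methyltransferase DNMT3B had 0.61 (adjusted p 0.121).

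Genes known from other tissues included single large rises. Over all genes 2.67% rose and 3.69% fell. Of 30 testis and germ line genes 4 rose (13.3%) and 1 fell (MNS1, 3.33%), with 2, 1, 2, 4, 1 and 2 rising without 1 array. With TSKS and HSPA1L these were the tumour antigen PRAME at 0.65 (SE 0.14) and the protamine PRM2 at 0.35, the last called in 0 of the 6 fits. Of 34 muscle genes 2 rose (5.88%) and 0 fell. Slow troponin TNNT1 read 8.18, 8.15 and 8.11 in scrambled and 8.70, 8.86 and 8.90 in CHD4 shRNA arrays and rose by 0.67 (SE 0.10), with CSRP3, and both kept their calls. Of 25 epithelial and keratinocyte genes 2 rose (8.0%), S100A7 and the junction protein JUP at 0.46 (called in 1 of the 6 fits). In the fibroblast and endothelial list 1 of 19 rose (5.26%), the endothelial kinase TIE1 at 0.74 (SE 0.16), called in 2 of the 6 fits. None of 25 neuronal genes passed the limma test, and ELAVL4 came nearest with 0.71 (adjusted p 0.0647). At an unadjusted p under 0.05 there were 4 higher and 1 lower, where 19.0% of all genes were under it. The summed level of the 4 epithelial markers EPCAM, KRT5, KRT19 and CDH1 was 18.6 to 19.3 in scrambled and 18.3 to 19.0 in CHD4 shRNA arrays, and none passed the threshold. KRT5 had the highest mean of the 4, 6.21.

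**Figure D4:**
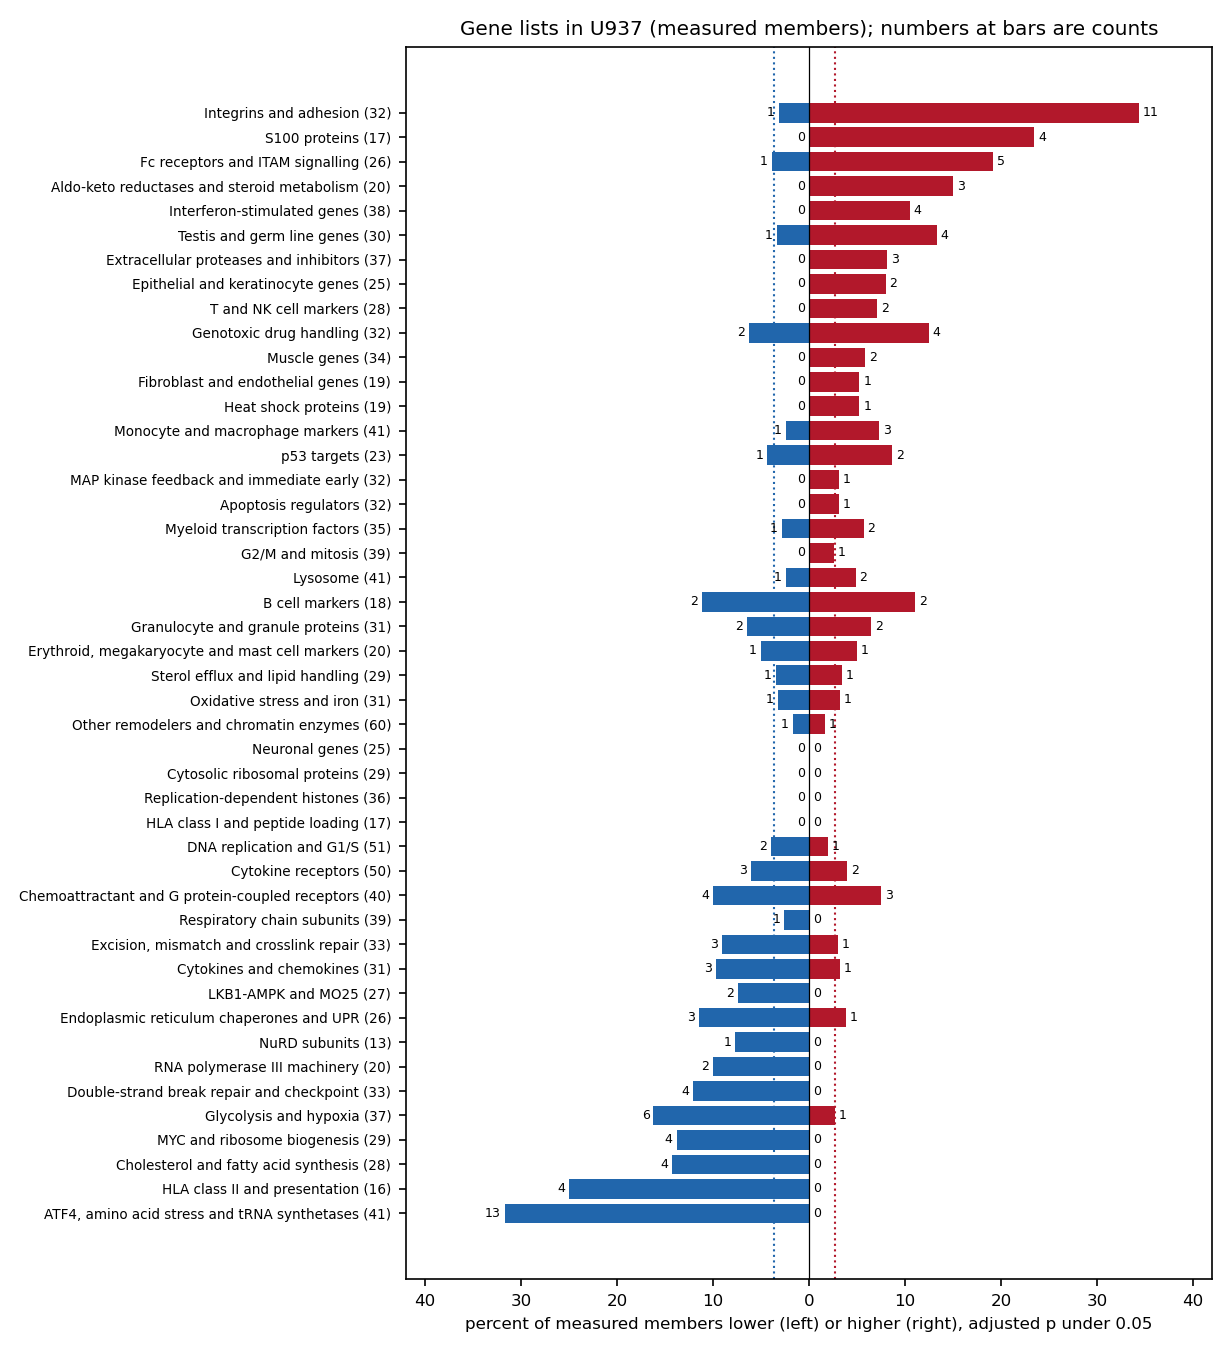
Percent of the measured members of each of 46 gene lists past the threshold lower (blue, left) or higher (red, right) in U937, with list sizes in brackets, counts at the bars, and dotted lines at the shares over all genes, 3.69% and 2.67%. Integrins and adhesion, with 11 of 32 higher, and amino acid stress, with 13 of 41 lower, have the longest bars.

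The U937 response was next set against that of MV4-11. Of the 55 rises of at least 2-fold, 42 were past the threshold higher in MV4-11, where 4.73% of all genes were, and of the 51 such falls 37 were past it lower (4.69% of all genes). In all, 1127 genes (9.42%) passed in MV4-11. No gene passed the test of the difference between the changes (limma adjusted p under 0.05 for 0 genes, unadjusted p under 0.05 for 546, 4.56%). CD52, IL1R2 and AKR1C3 changed by 4.38, 2.47 and 2.19 in U937 and by 4.68, 2.53 and 2.17 in MV4-11. Among HLA class II genes past the threshold in U937, the unadjusted p of the difference ran from 0.000276 for HLA-DRA to 0.032 for HLA-DMA and 0.759 for RFX5. HLA-DRA changed by -0.99 in U937 and 0.82 in MV4-11, a difference of -1.81 (SE 0.36, unadjusted p 0.000276, limma adjusted p 0.557). HLA-DRB1 changed by -0.99 and -0.01 (difference -0.98, SE 0.20, adjusted p 0.557), and HLA-DPA1, singled out after its values were seen, by -0.72 (adjusted p 0.199) and 1.55 (adjusted p 0.00761; difference adjusted p 0.539). EYA1 changed by 1.79 and 0.55, TSKS by 2.89 and 1.74, POLR3G by -1.92 and -0.75, and TOP1 by -0.45 and 0.00, with adjusted p of 0.736, 0.736, 0.937 and 0.937 for the differences. These differences did not pass adjustment, which does not show that the lines respond alike.

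The size of the response differed between the 3 CHD4 shRNA arrays. The median distance from the scrambled mean over the 320 rises was 0.52, 0.62 and 0.69 in replicates 1, 2 and 3, and over the 441 falls it was -0.47, -0.65 and -0.69. Replicate 1 was the highest array for 24 rises and the lowest for 11 falls, and replicate 3 for 198 and 247. CHD4 itself did not follow that order, with 8.23, 8.13 and 8.45. On the first principal component of the 6 U937 arrays, with 54% of the variance, the scrambled arrays lay between 14.69 and 15.61 and the CHD4 shRNA arrays at -6.71, -14.6 and -24.15. On the second, with 23.5%, replicate 3 of both groups was at -14.29 and -14.13.

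RefSeq promoter windows were found for 256 of the 320 rising genes (80.0%), 375 of the 441 falling genes (85.0%) and 9563 of all 11963 (79.9%). A window was called CpG-rich where at least 50% of its bases were G or C and its CpG count was at least 0.6 of that given by its base composition. Brighter genes have such windows more often, so the shares were read within quartiles of the scrambled mean. That mean is a term of the change, so the quartile of a gene is not independent of its call. In the brightest quartile 60 of 77 rising genes (77.9%), 153 of 176 falling genes (86.9%) and 86.9% of all genes had a CpG-rich window. In the next quartile these were 58 of 86 (67.4%), 122 of 145 (84.1%) and 83.1%. In both quartiles falling genes lay near all genes, and rising genes lower. In the 2 dimmer quartiles windows covered 71.1% and 73.3% of the rising genes and 75.6% and 74.9% of all genes. Of the 2-fold rises they covered 64.7% and 73.9% there, and 72.7% over all levels. With that many windows missing, the check was treated as void in these quartiles. It is void over all levels too, where all genes had windows for 79.9%, and the shares of 61.7% for rises, 83.5% for falls and 69.7% for all genes are given for completeness only. No test was made of these shares, and genes of 1 array set are not independent.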

How the data were processed

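Each array measured bulk RNA as biotin-labelled cRNA on an Affymetrix 3' array, per the labels' protocols. The log2 values were made by the authors with RMA, per the submitters' processing notes, and were used as deposited. The sources used here do not give the RMA version or say whether all 12 arrays were normalized together. Of 22277 probe sets, 62 controls, 2108 without a gene and 1043 with several were left out. The other 19064 stood for 11963 genes, and 4310 genes had several. Genes were tested with limma 3.58.1 in R 4.3.3 (lmFit and eBayes, no trend, 4 groups, 12 arrays, 8 residual and 4.66 prior degrees of freedom, two-sided). The script was tested on simulated data. The number of arrays limits the precision.

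Named genes are the 20 largest rises and 20 largest falls without overlap and every list member past the threshold. The 3 members of each list with the lowest p and the 6 brightest genes past the threshold were added. Members and the 46 lists (1518 listed genes, 1342 measured) were chosen with earlier results of these data known. Lists are described by counts, with no test. Promoter windows run from 250 bases before to 50 after the RefSeq start. Alternatives covered normalization, a filter on dim genes, probe sets per gene, the variance model, the threshold, the arrays fitted, a replicate block and leaving out each array. Deviations from the group means correlated at 0.002, 0.351 and 0.336 between same-numbered U937 arrays. Between differently numbered arrays they correlated at -0.408 to 0.169. The labels give a number but no pairing, so the main fit left the numbers out and a replicate block was run as an alternative. Whether arrays of 1 number share a batch was not tested.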

Additional observations from a re-analysis of the deposited data

Results flagged for a closer look

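Some of the largest changes were in probe sets outside the gene comparison. Of 2108 probe sets without a gene name in the annotation used, 23 were higher (1.09%) and 30 lower (1.42%) past the limma threshold. For this all probe sets but the controls were fitted together, an analysis added after seeing the data. Of 1043 probe sets with several genes, 19 were higher (1.82%) and 24 lower (2.3%). These shares are below the 2.67% and 3.69% of the 11963 genes, which come from a separate fit. The strongest unnamed probe set fell from 10.66 ± 0.072 to 8.747 ± 0.511 (SD, n = 3), a change of -1.913 (limma adjusted p 0.000378). A second unnamed probe set fell from 8.14 ± 0.11 to 6.333 ± 0.769, a change of -1.807 (limma adjusted p 0.00456). Another rose from 5.667 ± 0.04 to 7.503 ± 0.225, a change of 1.837 (limma adjusted p 1.25e-05). The largest change in a probe set shared by several genes was a rise from 5.913 ± 0.091 to 7.847 ± 0.51, which is 1.933 (limma adjusted p 0.00747). These would stand among the 20 largest changes of their direction had they named 1 gene. Which transcripts they read was not analysed here.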

How the results depend on the processing

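None of the 161 named genes past the threshold changed direction under the alternatives run. CHD4 changed by -2.29 to -2.08 without 1 array. The count of changed genes, 761, was 809 with quantile normalization, 715 with median centring, 768 with trend and robust fitting, 728 with probe sets averaged per gene and 846 with the U937 arrays alone. Without 1 array the counts were 306 to 670 changed genes, 141 to 263 higher, 165 to 407 lower, 41 to 60 higher by at least 2-fold and 28 to 83 lower by at least 2-fold. These fits have fewer arrays, and apart from that the cause was not tested. At adjusted p under 0.01, 250 genes changed, 107 higher and 143 lower, 32 of the lower ones by at least 2-fold, and at 0.1 they were 1146, 482 and 664. A replicate block within each line, for samples that share only a number, gave 1474 changed genes, 657 higher and 817 lower, and a replicate block in U937 alone gave 486 higher. Counting a gene as CpG-rich where any of its RefSeq windows was, an alternative chosen after seeing the data, gave 69.5% of rises and 89.6% of falls over all levels, where the check is void. The difference between the lines had 0 genes past the threshold under every alternative that could test it. Of 161 named genes past the threshold, 100 lost their call at adjusted p under 0.01, 21 with the U937 arrays alone, 19 with probe sets averaged, 17 with a replicate block in U937 alone, 15 with all named probe sets tested, 9 with median centring, 7 with quantile normalization, 4 with trend and robust fitting, 0 with a replicate block within each line and 25 to 86 without 1 array. Signal over background was not used here, so no limit from it can be given.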

Other observations

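Some gene families outside the lists held several changes, and they were singled out after their values were seen, so the counts are descriptions beside 2.67% of all genes higher and 3.69% lower. Of 34 actin-binding proteins of focal adhesions and the cortex 13 rose and 1 fell (PARVB), with a median change of 0.20. ADD3, a spectrin-actin linker, rose by 0.82 (SE 0.12, limma adjusted p 0.0024), the scaffold NEDD9 by 0.70, the actin polymerase EVL by 0.68 and tensin TNS1 by 0.63, and these 4 kept their calls without any 1 array. VCL and TGFB1I1, described with other groups, are 2 of the 13. Vimentin, VIM, the intermediate filament of mesenchymal and blood cells, read 12.40, 12.50 and 12.12 in scrambled and 11.64, 11.17 and 11.10 in CHD4 shRNA arrays. Its fall of 1.04 on the log2 scale (SE 0.21, limma adjusted p 0.0113) was called in 2 of the 6 fits without 1 array.

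Enzymes that build N-glycans fell in 5 of 13 cases and rose in 0, with a median of -0.35, among them DPAGT1, which starts the lipid-linked sugar, at -0.70 and the mannosyltransferase ALG3 at -0.52. GPI anchor assembly genes fell in 4 of 22 cases and rose in 0. Mitochondrial tRNA synthetases fell in 3 of 10 cases, FARS2 at -0.50, and rose in 0, and mitochondrial ribosomal proteins fell in 4 and rose in 1 of 51, MRPL42 at -0.47 and MRPL33 at 0.60. Mitochondrial import translocases had 1 fall among 16, TIMM44. DEAD and DEAH box helicases fell in 6 of 42 cases and rose in 0, with DDX60, an antiviral factor, at -1.08 and DDX10 at -0.70. Of 252 genes with C2H2 zinc finger names 12 fell, such as ZNF32 at -1.04 and ZNF432 at -0.88, and 3 rose, ZSCAN16 at 1.13 the most. RAB GTPases rose in 4 and fell in 1 of 42 cases, RAB23 at 0.59 and RAB31 at -0.71. MS4A proteins rose in 2 of 6 with MS4A3 at 0.82, and LILR receptors rose in 2 of 10.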
